A study of Mus musculus with 15 samples.

Results

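Epithelial cells sorted from the proximal small intestine of mouse fetuses were compared with crypt epithelial cells sorted from the proximal small intestine of adult mice. The rule took the 3 fetal and the 3 adult columns of the table of counts from freshly isolated tissue, so 6 of the 15 libraries of the series entered. Of the 24594 genes in that table, 24587 of them with a symbol, 13314 had enough counts to be tested, and all of these were fitted together. The other 9 libraries come from cultured organoids and were not used. Both groups were C57Bl/6J mice without treatment. Fetal cells were taken at E16.5, late in gestation, as EpCAM+, DAPI-, CD31- and CD45- cells, and their genotype is not labelled. Adult cells came from wildtype mice, from crypts of the first 20% of the small intestine, and were sorted as EpCAM+, DAPI-, Lin- and CD24mid cells, Lin standing for markers of other lineages and mid for an intermediate level. That gate follows the cell type label, while the protocol text of the same libraries words the DAPI and Lin step as the removal of negative cells, so the gate is not certain. EpCAM is a surface protein of epithelial cells, DAPI marks dead cells, and CD24 is a surface protein whose level differs between kinds of crypt cells. The adult age, the number of animals behind a library and the sex are not given, so the spread behind each p-value is that of the 3 libraries of a group and may be technical alone. Age, sort gate and tissue sampled (fetal intestine against isolated crypts) differ together between the groups and cannot be told apart. The adult libraries were made with a stranded total RNA kit for small inputs, and the fetal kit is not given in the sources used here, so a difference in kit cannot be told apart from age either.

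At this stage the mouse intestine has villi but no crypts, and its lining takes up swallowed fluid by endocytosis before any milk or bacteria arrive. The adult crypt is a pocket of stem and progenitor cells that divide continuously and face a dense bacterial community. The comparison sets this fetal lining against the adult compartment that renews the tissue.

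The libraries held between 5795518 and 10538004 counts, and the coefficient of biological variation was 9.83% in fetal and 11.3% in adult libraries. Of all tested genes, 54.9% were called at an adjusted p under 0.05, 29.0% as higher and 25.9% as lower in fetal cells, and 23.9% were called with a change of over 2-fold (2124 genes higher, and 1059 genes or 7.95% lower). For 62.3% of tested genes the 3 fetal and the 3 adult values did not overlap. With so many calls, a family is described below by how far its counts lie from these shares. A gene absent from 1 group passed the count filter through the other group alone and could be called in 1 direction only. All 10 epithelial markers were detected in both groups, but 8 were lower in fetal cells and 0 higher, 3 of them lower by over 2-fold, and they summed to 5297 to 5454 CPM (scaled counts relative to library size) in fetal and 7876 to 8234 CPM in adult libraries. Epcam measured 859, 833 and 841 CPM in the fetal libraries and 976, 1056 and 1071 CPM in the adult libraries (log2 fold change -0.29 ± 0.08, adjusted p = 0.00942), and Krt19, a keratin of simple epithelia, measured 839, 736 and 805 CPM in the fetal libraries and 2029, 2004 and 2080.2 CPM in the adult libraries (log2 fold change -1.36 ± 0.09, adjusted p = 5.06e-08). Markers of several other cell types were higher in fetal libraries. The 14 tested pancreatic exocrine genes summed to 1773, 3723 and 1835 CPM in fetal and at most 6.79 CPM in adult libraries, and the 15 mesenchymal genes to 199 to 292 CPM against 12.97 to 21.2 CPM. The 5 erythroid genes summed to 45.0 to 76.3 CPM against 1.70 to 2.25 CPM, and the 5 tested of 12 genes of neurons and glia to 46.8 to 71.3 CPM against 6.40 to 7.97 CPM, with 4 of the 5 higher. The other listed genes of neurons and glia, among them Sox10 and Stmn2, had too few counts to be tested. Of 18 genes of hepatocytes and fetal liver plasma proteins 9 were tested, 6 were higher and 2 lower, and they summed to 203 to 260 CPM against 74.1 to 114 CPM. Ttr, a plasma carrier of thyroid hormone, measured 73.8, 91.3 and 78.5 CPM in the fetal libraries and 7.25, 9.5 and 7.95 CPM in the adult libraries, whereas the fetal liver protein Afp was lower, with 17.6, 21.6 and 20.7 CPM in fetal against 82.6, 48.9 and 72.6 CPM in adult libraries, and albumin and the fibrinogen genes had too few counts to be tested. Of 13 stomach genes 6 were tested, 4 were higher and 1 lower. They summed to 31.1, 29.8 and 309 CPM in fetal against 10.8, 13.9 and 14.7 CPM in adult libraries. Cym alone gave 274 CPM in fetal replicate 3, and Gkn3 was the lower gene (log2 fold change -3.94). In such bulk libraries, fewer cells of a type and less RNA per cell cannot be told apart.

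**Figure D1:**
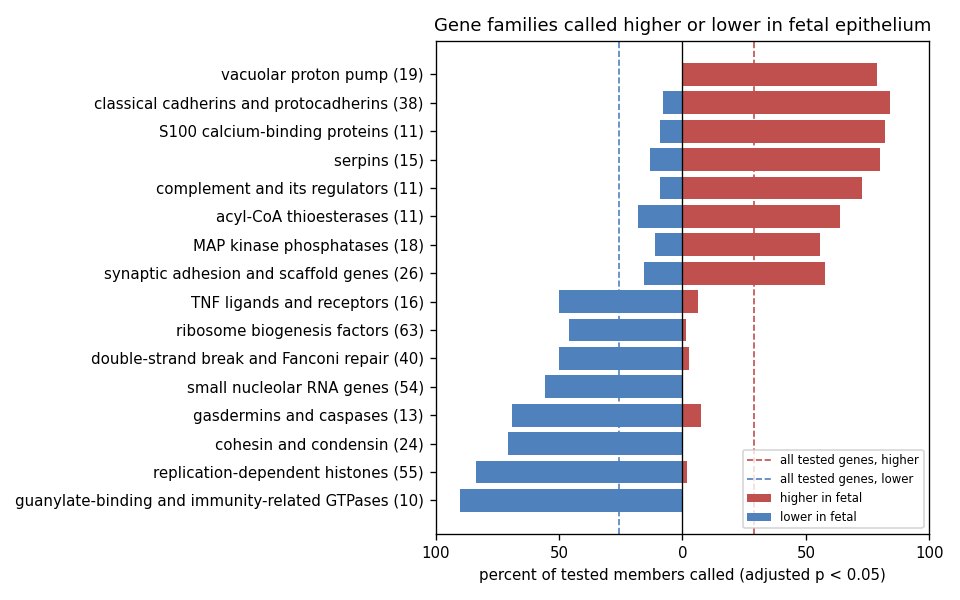
Share of tested members of 16 gene families called higher (right, red) or lower (left, blue) in fetal than in adult cells, in percent, with the number of tested members in brackets. Dashed lines give the shares over all 13314 tested genes, 29.0% higher and 25.9% lower. The vacuolar proton pump had no lower member, and the GTPases, cohesin and condensin, and the small nucleolar RNA genes had no higher member.

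The vacuolar proton pump was, apart from marker lists of other cell types, the family most shifted towards fetal cells among 97 lists with at least 8 tested members. This pump acidifies endosomes and lysosomes. It has a V1 part in the cytosol that splits ATP and a V0 part in the membrane that moves protons. Of its 19 tested genes, 15 were called higher and 0 lower, against 29.0% and 25.9% of all genes, and the median log2 fold change was 0.53 against 0.01 over all genes. Without fetal replicate 3, 1 gene was called lower. Higher calls were made for 8 of 9 tested V1 genes, 5 of 8 V0 genes and both accessory genes. Atp6v1b2, a V1 subunit of the ATP-splitting head, measured 165, 176 and 159 CPM in the fetal libraries and 64.7, 56.7 and 59.6 CPM in the adult libraries. Atp6v1a, the catalytic V1 subunit, measured 148, 154 and 146 CPM in the fetal libraries and 59.4, 52.3 and 62.2 CPM in the adult libraries. For both genes every fetal value was more than 2 times every adult value, with log2 fold changes of 1.47 ± 0.09 (SE), adjusted p = 2.05e-08, and of 1.36 ± 0.09 (SE), adjusted p = 5e-08. Atp6v1h, a regulatory V1 subunit, followed with a log2 fold change of 1.17 ± 0.10 (SE), adjusted p = 4.38e-07. The V0 subunit a exists in versions that send the pump to different membranes, and these versions differed. Atp6v0a4, known from acid-secreting kidney cells, measured 4.24, 3.87 and 4.78 CPM in the fetal libraries and 0, 0 and 0 CPM in the adult libraries, at least 25.1-fold higher in fetal cells (against a floor of 3 counts over the adult group). Atp6v0a1 was higher by 0.72 ± 0.11 (SE), adjusted p = 0.000116 on the log2 scale. Atp6v0a2 had a log2 fold change of -0.23 ± 0.11 and was not called (adjusted p = 0.104).

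Planar cell polarity genes align cells within the plane of a tissue layer. The family was picked for description after its values were seen. Of 31 tested genes 14 were higher and 3 lower, which is 45.2% and 9.68% against 29.0% and 25.9% of all genes. The median log2 fold change was 0.15. The core membrane protein Vangl2 measured 21.7, 20.1 and 19.8 CPM in the fetal libraries and 2.65, 4.41 and 2.59 CPM in the adult libraries, and its relative Vangl1 measured 27.9, 33.7 and 31.5 CPM in the fetal libraries and 10.4, 10.2 and 15.6 CPM in the adult libraries. Fetal and adult values of both genes were separate, with log2 fold changes of 2.66 ± 0.22 (SE), adjusted p = 3.5e-07, and of 1.36 ± 0.17 (SE), adjusted p = 1.83e-05. The giant cadherins Fat4 and Dchs1 bind each other across neighbouring cells, and the kinase Fjx1 modifies them. Fat4 measured 15.97, 20.1 and 19.6 CPM in the fetal libraries and 1.77, 0.848 and 2.94 CPM in the adult libraries, and Dchs1 measured 4.49, 4.24 and 3.94 CPM in the fetal libraries and 0, 0 and 0 CPM in the adult libraries. Fjx1 measured 7.23, 8.98 and 4.97 CPM in the fetal libraries and 0.177, 0 and 0.173 CPM in the adult libraries. Fat4 was higher in fetal cells by 3.32 ± 0.29 (SE), adjusted p = 7.49e-07 on the log2 scale, Dchs1 was at least 24.2-fold higher, and Fjx1 was higher by a ratio of 59.4 (95% exact interval 16.2 to 494, counting error only), from 2 counts in the adult group. The Wnt5a receptor Ror2 was also higher, with a log2 fold change of 1.85 ± 0.19 (SE), adjusted p = 2.99e-06. In contrast, Scrib, which also sets the apical and basal sides of epithelia, was lower (log2 fold change -0.55 ± 0.09, adjusted p = 0.000128), as were Dvl1 (log2 fold change -0.52 ± 0.09, adjusted p = 0.000406) and Daam2 (log2 fold change -0.84 ± 0.28, adjusted p = 0.02). The call for Daam2 was lost, at adjusted p from 0.0629 to 0.0738, without fetal replicate 1, fetal replicate 2 or adult replicate 3, and with DESeq2. Celsr1 and Celsr2, core cadherins of the same system, had log2 fold changes of -0.23 ± 0.13 and 0.15 ± 0.11 and were not called. Fat4, Dchs1 and Ror2 are also expressed by mesenchyme, whose summed markers were higher in fetal libraries, and the part of mesenchymal RNA in these values was not tested.

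**Figure D2:**
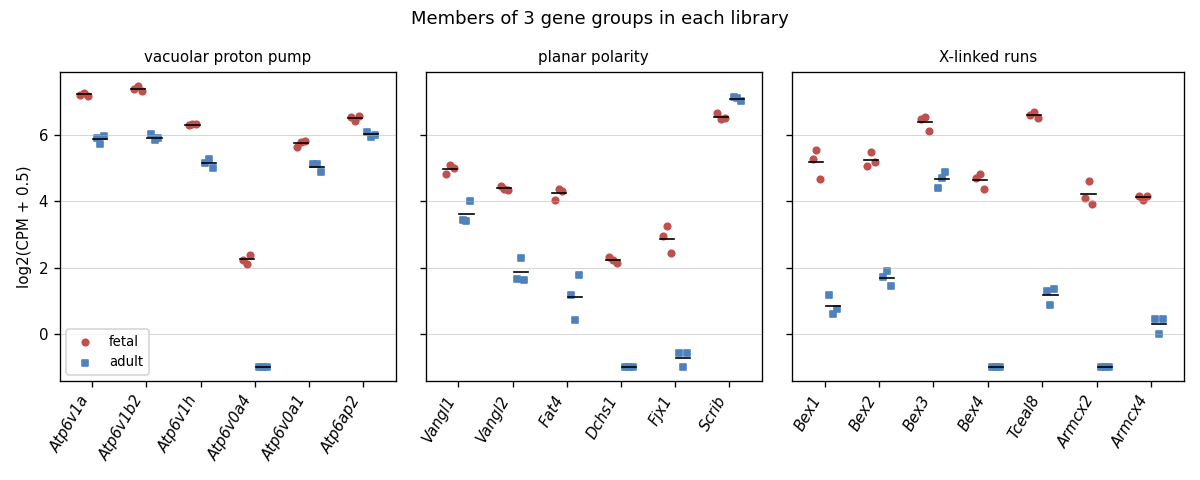
Level of each named gene as log2(CPM + 0.5) in the 3 fetal (red circles) and 3 adult (blue squares) libraries, with black lines at the mean, for the vacuolar proton pump, planar polarity genes and genes of X-linked runs. Fetal and adult values are separate for each gene shown, and Scrib alone lies lower in fetal libraries.

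Acyl-CoA thioesterases split activated fatty acids into free acid and coenzyme A. Of 11 tested genes 7 were higher and 2 lower, against 29.0% and 25.9% of all genes. The median log2 fold change was 0.71. Acot1, a cytosolic enzyme, measured 137, 160.3 and 139 CPM in the fetal libraries and 8.66, 10 and 10.4 CPM in the adult libraries. Its neighbours Acot2 and Acot4, which act in mitochondria and peroxisomes, were higher by 2.32 ± 0.16 (SE), adjusted p = 6.63e-08, and by 2.47 ± 0.15 (SE), adjusted p = 2.12e-08, on the log2 scale. These genes lie side by side with Acot3 and Acot6 on chr12:83987861-84143517 (mm10), where 6 neighbouring tested genes, Dnal1 included, were all called higher by over 2-fold. The copies are similar in sequence and reads may have been split between them, so their separate values are uncertain. Acot7, a cytosolic enzyme best known from brain, went the other way and measured 5.86, 6.73 and 5.62 CPM in the fetal libraries and 46.1, 64.1 and 56.2 CPM in the adult libraries. No fetal value of Acot7 came near an adult one, and the log2 fold change was -3.19 ± 0.16 (SE), adjusted p = 3.47e-09. Acot8, a peroxisomal enzyme, was lower, its log2 fold change being -0.72 ± 0.13 (SE), adjusted p = 0.00034.

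MAP kinase phosphatases and their dual-specificity relatives remove phosphate from signalling kinases. Of 18 tested genes 10 were higher and 2 lower, against 29.0% and 25.9% of all genes. The median log2 fold change was 0.70. Dusp9, which acts on ERK in the cytoplasm, measured 21.7, 17.2 and 14.8 CPM in the fetal libraries and 0.354, 0.848 and 0.346 CPM in the adult libraries. Dusp3 measured 35.9, 41.9 and 38 CPM in the fetal libraries and 8.66, 7.97 and 6.91 CPM in the adult libraries, and Dusp12 measured 25.8, 28.9 and 28.2 CPM in the fetal libraries and 7.6, 5.77 and 5.53 CPM in the adult libraries. None of these values overlapped between the groups, and the log2 fold changes were 5.06 ± 0.34 (SE), adjusted p = 5.76e-08, 2.30 ± 0.15 (SE), adjusted p = 3.19e-08, and 2.13 ± 0.17 (SE), adjusted p = 2.41e-07. The ERK-induced feedback phosphatases moved less. Dusp4, Dusp5 and Dusp6 had log2 fold changes of 0.89 ± 0.12, 0.83 ± 0.18 and 0.67 ± 0.20 and were called, and Dusp1 had one of -0.29 ± 0.33 and was not (adjusted p = 0.481). The lower members were Dusp11, a phosphatase that acts on RNA (log2 fold change -0.26 ± 0.08, adjusted p = 0.0139), and Dusp8 (log2 fold change -0.52 ± 0.18, adjusted p = 0.0249). Both lower calls were lost without fetal replicate 2, at adjusted p of 0.0544 and 0.0928, and that for Dusp8 also without fetal replicate 3 or either of adult replicates 1 and 2 and with DESeq2, at adjusted p from 0.0524 to 0.105.

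Cadherins hold cells together through calcium. Of 38 tested members 32 were higher and 3 lower, but 22 of the higher ones were Pcdhg genes of 1 cluster. Their transcripts share their last exons, their mean levels lay within 28.7 to 37.2 CPM in fetal and 20.0 to 29.6 CPM in adult libraries, and the 22 calls are not independent. Of the other 16 members 10 were higher and 3 lower, against 29.0% and 25.9% of all genes. Their median log2 fold change was 1.86. Cdh6, a cadherin of the fetal kidney, measured 8.73, 5.86 and 7.03 CPM in the fetal libraries and 0, 0 and 0 CPM in the adult libraries, at least 41.5-fold higher. Cdh3, or P-cadherin, measured 6.24, 9.73 and 6.66 CPM in the fetal libraries and 0, 0.339 and 0 CPM in the adult libraries, and Pcdh9 measured 10.9, 18.6 and 16.497 CPM in the fetal libraries and 0.707, 0 and 0.346 CPM in the adult libraries. All fetal values lay above all adult values. The adult group held 2 counts of Cdh3, which gives a ratio of 64.6 (95% exact interval 17.6 to 537, counting error only). The log2 fold change of Pcdh9 was 5.40 ± 0.46 (SE), adjusted p = 5.85e-07, and it became 6.35 without adult replicate 1. E-cadherin, encoded by Cdh1, was slightly lower in fetal cells (log2 fold change -0.27 ± 0.09, adjusted p = 0.0196), a call that was lost without fetal replicate 1 or 2, with scaling by library size only, and with the stricter filter, at adjusted p from 0.0505 to 0.0596. Pcdh19 (log2 fold change -2.50 ± 0.39, adjusted p = 0.000115) and Pcdh1 (log2 fold change -0.41 ± 0.08, adjusted p = 0.000957) were lower. The neural and mesenchymal cadherins Cdh2 and Cdh11 were among the higher members, and the part of neural and mesenchymal RNA was not tested.

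Serpins are protease inhibitors and carriers of plasma. Of 38 serpin genes with counts 15 were tested, and 12 were higher and 2 lower, against 29.0% and 25.9% of all genes. The median log2 fold change was 4.39. The 4 tested genes with 0 adult counts passed the count filter through the fetal libraries alone. They could only be called higher, so the count and the median partly follow from the filter. Serpina6, the plasma carrier of glucocorticoids, measured 47.6, 95.8 and 41.2 CPM in the fetal libraries and 0, 0 and 0 CPM in the adult libraries, at least 344-fold higher. Serpini2, known from pancreas, measured 34.9, 71.7 and 48.7 CPM in the fetal libraries and 0, 0 and 0 CPM in the adult libraries, at least 298-fold higher. Serpinh1, a chaperone of collagen, measured 59, 66.6 and 43.8 CPM in the fetal libraries and 0, 0 and 0 CPM in the adult libraries, at least 319-fold higher. Serpini2 and Serpina6 were highest in fetal replicate 2, the library with the highest sum of pancreatic markers, and Serpinh1 is also expressed by mesenchyme, and the part of these cells was not tested. Of 9 tested genes for plasma proteins known from liver, 6 were higher and 2 lower, and the higher ones include the serpins Serpina1b and Serpina1c. The part of liver RNA was not tested either. The Serpina1 genes, which encode the elastase inhibitor alpha-1-antitrypsin, were higher too, with Serpina1b at 24.4, 32.6 and 29 CPM in the fetal libraries and 1.24, 0.679 and 0.519 CPM in the adult libraries. Their copies are nearly identical and their separate values are uncertain. Serpinf2, the plasma inhibitor of plasmin, measured 33.8, 46 and 42.3 CPM in the fetal libraries and 6.89, 6.45 and 5.7 CPM in the adult libraries, with a log2 fold change of 2.68 ± 0.17 (SE), adjusted p = 2.92e-08. Serpinb9, which acts inside cells and blocks granzyme B, was lower (log2 fold change -2.30 ± 0.35, adjusted p = 0.000103), with 2, 1.12 and 1.03 CPM in fetal against 6.72, 4.92 and 8.64 CPM in adult libraries. Serpinb1a was lower, its log2 fold change being -0.33 ± 0.10 (SE), adjusted p = 0.0113, a call lost without fetal replicate 1 at adjusted p = 0.0658.

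Complement is the plasma system that tags and lyses microbes. Of 11 tested members 8 were higher and 1 lower, against 29.0% and 25.9% of all genes. Their median log2 fold change was 1.03. Of 9 tested liver plasma protein genes 6 were higher and 2 lower, Afp among the lower ones. They summed to 203 to 260 CPM in fetal and 74.1 to 114 CPM in adult libraries, and the part of liver cells was not tested. Cfi, the protease that switches off complement on surfaces, measured 152, 180.3 and 155 CPM in the fetal libraries and 20, 21.5 and 21.6 CPM in the adult libraries. Clu, a secreted chaperone that also inhibits complement lysis, measured 79.3, 109.6 and 132 CPM in the fetal libraries and 2.47, 3.73 and 2.25 CPM in the adult libraries. Both were well separated, with log2 fold changes of 2.94 ± 0.11 (SE), adjusted p = 1.95e-10, and of 5.24 ± 0.24 (SE), adjusted p = 1.62e-09. C1qa, a component of the starter complex made by macrophages, measured 5.24, 9.98 and 6.37 CPM in the fetal libraries and 0.177, 0 and 0.519 CPM in the adult libraries, and its fitted log2 fold change of 4.86 ± 0.57 became 6.13 without adult replicate 3. Of 17 immune markers 3 had enough counts to be tested, and they went both ways: Csf1r (log2 fold change 0.71 ± 0.18, adjusted p = 0.00381) and Laptm5 (log2 fold change 3.95 ± 0.55, adjusted p = 4.45e-05) were higher and Itgam (log2 fold change -1.84 ± 0.24, adjusted p = 2.7e-05) was lower. The membrane shields Cd55 and Cd59a were higher by 1.03 ± 0.17 (SE), adjusted p = 0.000169, and by 1.55 ± 0.23 (SE), adjusted p = 9.11e-05. C1ra, a protease of the starter complex, was lower, with 0.374, 0.125 and 0.375 CPM in fetal against 3.54, 3.22 and 4.67 CPM in adult libraries (log2 fold change -3.60 ± 0.45, adjusted p = 1.77e-05).

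S100 proteins bind calcium inside and outside cells. The list's pattern also took in S100pbp, a gene for a binding partner and no S100 protein. Without it, 8 of 10 tested genes were higher and 1 lower, against 29.0% and 25.9% of all genes. S100g, or calbindin-D9k, carries absorbed calcium through enterocytes and measured 141, 162 and 147 CPM in the fetal libraries and 48.8, 44.5 and 76.9 CPM in the adult libraries. S100a1 measured 18.3, 26.9 and 23.7 CPM in the fetal libraries and 10.4, 12.4 and 12.4 CPM in the adult libraries. The fetal values of both were all above the adult ones (log2 fold change 1.40 ± 0.16, adjusted p = 8.66e-06, and log2 fold change 0.97 ± 0.17, adjusted p = 0.000412). S100a5 measured 2.62, 4.86 and 4.03 CPM in the fetal libraries and 0, 0 and 0 CPM in the adult libraries, at least 22.3-fold higher. S100a6 and S100a11 were higher by 1.10 ± 0.22 and 0.74 ± 0.19 on the log2 scale, and S100a16 was lower (log2 fold change -0.71 ± 0.18, adjusted p = 0.00515).

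Genes for synaptic adhesion and scaffolds were higher in 15 and lower in 4 of 26 cases, against 29.0% and 25.9% of all genes. Their median log2 fold change was 1.18. Pclo and Bsn, large proteins that hold secretory vesicles near the release site, measured 139, 172 and 136 CPM in the fetal libraries and 12.4, 8.14 and 10.9 CPM in the adult libraries and, for Bsn, 82, 78.6 and 81.9 CPM in the fetal libraries and 24.4, 24.8 and 24 CPM in the adult libraries. Homer2, a postsynaptic scaffold also found in secretory epithelia, measured 186, 175 and 183 CPM in the fetal libraries and 65.4, 79.9 and 70.9 CPM in the adult libraries. All 3 separated the groups, with log2 fold changes of 3.83 ± 0.15 (SE), adjusted p = 3.86e-10, 1.73 ± 0.10 (SE), adjusted p = 8.94e-09, and 1.33 ± 0.09 (SE), adjusted p = 6.87e-08. Lower members were Shank2, which anchors apical ion transporters in epithelia, at 39.9, 41.8 and 45.3 CPM in the fetal libraries and 102, 97 and 118 CPM in the adult libraries, and Cask, a basolateral scaffold, with a log2 fold change of -0.74 ± 0.08 (SE), adjusted p = 8.73e-06. Shank2 was lower, its log2 fold change being -1.32 ± 0.10 (SE), adjusted p = 2.01e-07. Lrfn3 (log2 fold change -1.65 ± 0.23, adjusted p = 4.06e-05) was the other member named by rule, and Dlgap1 (log2 fold change -2.65 ± 0.41, adjusted p = 0.000125) the remaining lower one. Vesicle scaffolds are also expressed by endocrine and neural cells, and their part was not tested.

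Potassium channels set the voltage that drives chloride and fluid secretion. This family was picked after its values were seen. Of 32 tested genes 19 were higher and 8 lower, against 29.0% and 25.9% of all genes. The share higher thus lay above the background and the share lower near it. The 8 lower genes included the channels known for crypt secretion. Kcnn4, the basolateral channel opened by calcium, measured 1.87, 1.12 and 1.12 CPM in the fetal libraries and 76.7, 68.4 and 77.8 CPM in the adult libraries. Kcnq1, the basolateral channel opened by cyclic AMP, measured 21.8, 21.7 and 14.3 CPM in the fetal libraries and 197, 175 and 226 CPM in the adult libraries, and its partner subunit Kcne3 measured 42.4, 32.8 and 29.6 CPM in the fetal libraries and 225, 245 and 282 CPM in the adult libraries. Each of the 3 was lower in fetal cells with no overlap, with log2 fold changes of -5.76 ± 0.18 (SE), adjusted p = 4.19e-11, -3.38 ± 0.15 (SE), adjusted p = 1.41e-09, and -2.85 ± 0.13 (SE), adjusted p = 1.88e-09. The leak channel Kcnk10 was lower as well (log2 fold change -4.71 ± 0.20, adjusted p = 9.03e-10). Higher in fetal cells were Kcnk16, a leak channel known from pancreas, at 28.2, 42.5 and 26.5 CPM in the fetal libraries and 2.3, 1.53 and 0.346 CPM in the adult libraries, Kcnj11, the pore of the channel that couples glucose to insulin release, at 12.2, 17.3 and 9.65 CPM in fetal against 0.53, 0.509 and 0 CPM in adult libraries, and Kcnh2, a voltage-gated channel also expressed in islets and muscle (log2 fold change 3.74 ± 0.34, adjusted p = 8.6e-07). Kcnk16 (log2 fold change 4.53 ± 0.35, adjusted p = 1.96e-07) and Kcnj11 (log2 fold change 5.16 ± 0.48, adjusted p = 1.23e-06) were both highest in fetal replicate 2, the library with the highest sum of pancreatic exocrine markers. The insulin gene Ins2 measured 71.8, 74.2 and 43.7 CPM in the fetal libraries, and Ins1 was highest in fetal replicate 1. The part of pancreatic RNA was not tested. With genes required to reach 10 CPM in 3 libraries, 6 potassium channel genes were higher and 7 lower.

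Homeobox genes outside the Hox clusters encode transcription factors of lineage and position. Picked after its values were seen, the list had 40 tested members, 3 of them antisense genes. Of the 40 members 26 were higher and 10 lower, against 29.0% and 25.9% of all genes, so the share lower was near the background. The median log2 fold change was 1.03. Prox1 measured 47.9, 52.8 and 50 CPM in the fetal libraries and 4.07, 3.22 and 4.15 CPM in the adult libraries, and Isl1 measured 34.7, 37.7 and 30.4 CPM in the fetal libraries and 0.53, 2.04 and 1.56 CPM in the adult libraries. Their fetal values were all more than 10 times the adult ones, with log2 fold changes of 3.71 ± 0.15 (SE), adjusted p = 5.28e-10, and of 4.61 ± 0.26 (SE), adjusted p = 1.16e-08. Both factors act in hormone-producing cells of gut and pancreas. Insulin itself, from Ins2, measured 71.8, 74.2 and 43.7 CPM in the fetal libraries and 0, 0 and 0 CPM in the adult libraries, at least 354-fold higher in fetal cells, and Ins1 measured 36.2, 33.8 and 24.1 CPM in the fetal libraries and 0.177, 0 and 0 CPM in the adult libraries. Endocrine pancreas expresses both insulin genes, and its part was not tested. Other genes of hormone-producing cells went different ways. Neurog3, the factor that starts endocrine development, was higher, with 43.7, 52.9 and 35.5 CPM in fetal against 3.71, 9.5 and 2.42 CPM in adult libraries (log2 fold change 3.06 ± 0.31, adjusted p = 2.74e-06). Chga, a granule protein, was lower, with 176, 208 and 174 CPM in fetal against 536, 412 and 432 CPM in adult libraries (log2 fold change -1.31 ± 0.11, adjusted p = 5.7e-07), and Gcg, the glucagon gene, overlapped and was not called (log2 fold change 0.15 ± 0.23, adjusted p = 0.595). Lower in fetal cells were Barx2 (0.624, 0.748 and 1.97 CPM in fetal against 33.9, 33.8 and 44.8 CPM in adult libraries) and Hopx, a marker of slowly cycling crypt cells (26.3, 24.2 and 20.6 CPM in fetal against 56.2, 60.1 and 74.3 CPM in adult libraries). The log2 fold changes of these genes were -4.96 ± 0.28 (SE), adjusted p = 1.21e-08, and -1.43 ± 0.13 (SE), adjusted p = 1.3e-06. That of Barx2 became -5.72 without fetal replicate 3.

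Regulators of tissue-restricted splicing, also picked after their values were seen, were higher in 16 and lower in 6 of 30 tested cases. That is 53.3% and 20.0% against 29.0% and 25.9% of all genes, and the median log2 fold change was 0.36. Qk, Celf2 and Rbms3 are RNA-binding proteins of mesenchymal and neural cells. Celf2 measured 28.3, 26.4 and 23.2 CPM in the fetal libraries and 1.41, 1.53 and 0.691 CPM in the adult libraries, and Qk measured 21.3, 18.6 and 24.5 CPM in the fetal libraries and 0, 0.509 and 0.519 CPM in the adult libraries. Rbms3 measured 17.2, 16.2 and 14.5 CPM in the fetal libraries and 0, 0 and 0.346 CPM in the adult libraries. All 3 were close to 0 in adult libraries, with log2 fold changes of 4.40 ± 0.25 (SE), adjusted p = 1.1e-08, and 5.89 ± 0.37 (SE), adjusted p = 3.34e-08, for Celf2 and Qk. The adult group held 2 counts of Rbms3, which gives a ratio of 137 (95% exact interval 37.8 to 1137, counting error only). Esrp1, the regulator that keeps epithelial splice forms, was lower at 106, 93.8 and 103 CPM in fetal against 156, 148 and 168 CPM in adult libraries (log2 fold change -0.64 ± 0.09, adjusted p = 3.98e-05), and Msi1, a stem cell factor that blocks translation, was lower at 21.7, 17.6 and 14.2 CPM in fetal against 30.8, 31 and 34.6 CPM in adult libraries (log2 fold change -0.86 ± 0.16, adjusted p = 0.000435). Mbnl3 was lower, its log2 fold change being -0.66 ± 0.12 (SE), adjusted p = 0.000358. The summed mesenchymal markers were higher in fetal libraries and their part in these values was not tested.

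Genes of the primary cilium, an antenna that carries hedgehog signals, were counted after their values were seen. Of 66 tested genes 22 were higher and 2 lower, which is 33.3% and 3.03% against 29.0% and 25.9% of all genes, and the median log2 fold change was 0.29. The share higher thus lay near the background, and the share lower was below it. The motor of return transport Dync2h1 measured 36.3, 41.4 and 43.1 CPM in the fetal libraries and 9.72, 10.7 and 10.9 CPM in the adult libraries, with a log2 fold change of 1.95 ± 0.13 (SE), adjusted p = 7.29e-08. Kif3b, part of the outward motor, measured 91.6, 96 and 99.8 CPM in the fetal libraries and 56, 57 and 56.7 CPM in the adult libraries (log2 fold change 0.76 ± 0.08, adjusted p = 6.8e-06). The 2 lower members were Cc2d2a (log2 fold change -0.39 ± 0.13, adjusted p = 0.0202) and Traf3ip1 (log2 fold change -0.39 ± 0.12, adjusted p = 0.0161), and both calls were lost without fetal replicate 3 and with DESeq2, that of Cc2d2a also without adult replicate 1 and that of Traf3ip1 without fetal replicate 2, at adjusted p from 0.0507 to 0.0889.

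The guanylate-binding and immunity-related GTPases were the family most shifted towards adult cells among the same lists. These proteins are induced by interferon and attack vacuoles that hold bacteria or parasites. Of 10 tested genes 0 were higher and 9 lower, against 29.0% and 25.9% of all genes, with a median log2 fold change of -4.15. Irgm2 measured 1.37, 3.12 and 2.91 CPM in the fetal libraries and 29.7, 29.4 and 42.7 CPM in the adult libraries, and Igtp measured 0.374, 0.998 and 0.375 CPM in the fetal libraries and 20.7, 19 and 36.5 CPM in the adult libraries. Irgm1, the member that restrains the others, measured 20.6, 18.3 and 20.7 CPM in the fetal libraries and 58.5, 64.6 and 81.6 CPM in the adult libraries. The groups did not overlap, with log2 fold changes of -3.75 ± 0.25 (SE), adjusted p = 5.74e-08, -5.45 ± 0.39 (SE), adjusted p = 9.6e-08, and -1.78 ± 0.13 (SE), adjusted p = 1.64e-07. Gbp2 measured 0.374, 0.374 and 0.187 CPM in the fetal libraries and 6.72, 6.28 and 9.16 CPM in the adult libraries and Gbp3 0.374, 0.374 and 0.375 CPM in the fetal libraries and 4.42, 4.07 and 5.88 CPM in the adult libraries, with log2 fold changes of -4.54 ± 0.40 (SE), adjusted p = 7.27e-07, and of -3.62 ± 0.39 (SE), adjusted p = 4.96e-06. Tgtp2 measured 0, 0 and 0 CPM in the fetal libraries and 3.36, 2.71 and 12.97 CPM in the adult libraries, at least 56.5-fold lower in fetal cells. Its adult replicate 3 lay well above the other adult libraries. Gbp7 measured 8.86, 9.23 and 10.3 CPM in the fetal libraries and 10.3, 9.33 and 20.9 CPM in the adult libraries, overlapped between the groups and was not called (log2 fold change -0.51 ± 0.27, adjusted p = 0.131), but without adult replicate 2 all 10 genes were called lower.

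The promoters of this family are shown because a short pattern bound by interferon-activated factors recurs in them. The pattern, GAAA followed by any 2 bases and a second GAAA, was searched on both strands in RefSeq promoters (build GRCm38.p6, from 250 bases before to 50 after the start). All 7 matched family promoters held it, among them that of Gbp7, against 2.91% of the 10573 tested genes with a promoter sequence. The pattern was looked for after the values were known, and the family's copies are related in sequence. A match describes the letters and is not a binding site. Capitals mark the matches, which on the opposite strand read TTTC, any 2 bases and TTTC. The windows lie at chr3:142620413-142620712 on the plus strand for Gbp2, chr3:142559794-142560093 on the plus strand for Gbp3, chr3:142530086-142530385 on the plus strand for Gbp7, chr11:58199306-58199605 on the plus strand for Igtp, chr11:48871371-48871670 on the minus strand for Irgm1 and chr11:49064163-49064462 on the minus strand for Tgtp2.
Gbp2: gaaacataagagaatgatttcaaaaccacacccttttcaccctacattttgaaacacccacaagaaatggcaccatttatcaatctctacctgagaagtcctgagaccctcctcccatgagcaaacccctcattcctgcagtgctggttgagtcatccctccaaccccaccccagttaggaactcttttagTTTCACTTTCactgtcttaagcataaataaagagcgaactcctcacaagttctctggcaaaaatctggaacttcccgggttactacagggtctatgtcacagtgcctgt
Gbp3: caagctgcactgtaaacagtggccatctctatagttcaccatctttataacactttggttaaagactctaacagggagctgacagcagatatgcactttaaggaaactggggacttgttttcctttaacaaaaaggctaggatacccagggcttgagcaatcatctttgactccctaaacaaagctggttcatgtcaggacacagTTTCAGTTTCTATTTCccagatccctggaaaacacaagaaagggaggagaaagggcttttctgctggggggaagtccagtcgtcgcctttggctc
Gbp7: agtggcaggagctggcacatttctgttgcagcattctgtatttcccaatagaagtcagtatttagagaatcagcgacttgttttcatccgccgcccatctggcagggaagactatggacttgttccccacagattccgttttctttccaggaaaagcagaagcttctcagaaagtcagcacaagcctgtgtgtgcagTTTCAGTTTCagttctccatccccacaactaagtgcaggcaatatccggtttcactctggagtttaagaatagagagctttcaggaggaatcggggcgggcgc
Igtp: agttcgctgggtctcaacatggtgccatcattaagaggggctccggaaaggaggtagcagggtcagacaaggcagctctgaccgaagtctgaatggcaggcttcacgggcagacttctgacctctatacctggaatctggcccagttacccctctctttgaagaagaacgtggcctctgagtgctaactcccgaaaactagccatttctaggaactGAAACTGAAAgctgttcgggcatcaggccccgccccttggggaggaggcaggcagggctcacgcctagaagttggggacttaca
Irgm1: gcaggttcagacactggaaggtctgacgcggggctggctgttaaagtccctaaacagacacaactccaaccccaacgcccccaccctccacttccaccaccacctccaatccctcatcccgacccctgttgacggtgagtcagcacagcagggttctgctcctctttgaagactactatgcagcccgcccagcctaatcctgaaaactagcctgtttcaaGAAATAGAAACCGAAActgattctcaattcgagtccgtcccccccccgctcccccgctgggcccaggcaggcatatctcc
Tgtp2: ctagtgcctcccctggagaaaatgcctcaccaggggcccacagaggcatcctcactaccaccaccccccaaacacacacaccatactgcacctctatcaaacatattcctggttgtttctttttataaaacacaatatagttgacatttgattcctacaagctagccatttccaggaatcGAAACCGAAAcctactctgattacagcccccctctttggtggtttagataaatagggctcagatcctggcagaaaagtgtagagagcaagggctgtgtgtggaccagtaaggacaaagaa

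Over all genes, 9 patterns were counted in the same promoters after the calls were known. Of the 164 promoters of genes lower by over 8-fold, 12.8% held the GAAA pair, against 3.06% of the 620 promoters of genes higher by over 8-fold and 2.91% of all. The 12.8% were 21 promoters, among them those of Gbp2, Gbp3, Igtp and Tgtp2 shown above. The share without the GTPase family was not computed, so the excess is not independent of that family. The sequence CCGGAAG, which ETS factors bind, was in 17.8% of all promoters but in 4.27% and 3.23% of those lower and higher by over 8-fold. TATAAA stood in 7.42% of all, in 17.7% of those lower and in 10.2% of those higher by over 8-fold. The remaining patterns were CAAAGTCCA (0.482% of all, 1.83% lower, 0.968% higher), GGAATG (12.002%, 16.46%, 16.29%) and TGACTCA (3.49%, 4.88%, 3.71%). GGGGCGGGG (21.7%, 12.2%, 16.45%), TTTATGG (1.48%, 3.05%, 1.13%) and CCAAT (39.2%, 37.8%, 37.7%) complete the set. CpG pairs were also rarer in the strongly changed genes. The median ratio of observed to expected CpG was 0.759 over all promoters, 0.583 for genes higher and 0.275 for genes lower by over 8-fold, and 22.6% of the latter had a ratio over 0.6 against 70.8% of all. These shares describe the promoters and no test was made of them.

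Schlafens, another interferon-induced family, had 5 tested genes, too few for the ranking, and all 5 were lower. They lie side by side on chr11:82951349-83070678. Slfn9 measured 147, 118 and 117 CPM in the fetal libraries and 313, 371 and 384 CPM in the adult libraries, with a log2 fold change of -1.48 ± 0.11 (SE), adjusted p = 1.5e-07. Slfn2, which slows T cell division, measured 0.249, 0 and 0.844 CPM in the fetal libraries and 7.25, 9.33 and 9.85 CPM in the adult libraries, and Slfn5 measured 0.125, 0 and 0 CPM in the fetal libraries and 1.59, 2.54 and 2.59 CPM in the adult libraries. The log2 fold change of Slfn2, -4.38 ± 0.49, became -5.94 without fetal replicate 3. Slfn5 had 1 count in the fetal group, and its adult to fetal ratio was 60.1 (95% exact interval 10.2 to 2433, counting error only). TRIM proteins are ubiquitin ligases, many of them antiviral. Of 45 tested genes 10 were higher and 22 lower, which is 22.2% and 48.9% against 29.0% and 25.9% of all genes. The median log2 fold change was -0.19. The lower ones included 6 neighbours on chr7:104244448-104507853, Trim34a, Trim5, Trim12a, Trim12c, Trim30a and Trim30d, with log2 fold changes from -5.45 to -1.34. Trim30d measured 0.374, 0.873 and 0.187 CPM in the fetal libraries and 24.4, 22.2 and 14.9 CPM in the adult libraries, and Trim30a had a log2 fold change of -4.39 ± 0.62 that became -7.53 without fetal replicate 3. That of Trim30d, -5.45 ± 0.37, became -6.16 without fetal replicate 2. Trim36, linked to cell division, was lower at 6.74, 7.48 and 6 CPM in fetal against 48.6, 40.7 and 35.4 CPM in adult libraries. Higher were Trim35 at 123, 127 and 109 CPM in fetal against 12.02, 5.94 and 11.9 CPM in adult libraries and Trim44 at 186, 199 and 166 CPM in fetal against 57.5, 66.5 and 71.7 CPM in adult libraries, beside Trim71, a factor of embryonic cells with 0 counts in the adult group. The log2 fold changes of Trim36, Trim35 and Trim44 were -2.63 ± 0.16 (SE), adjusted p = 2.57e-08, 3.59 ± 0.18 (SE), adjusted p = 3.52e-09, and 1.49 ± 0.10 (SE), adjusted p = 7.57e-08.

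Caspases and gasdermins carry out cell death, and the inflammatory ones respond to bacterial products in the cytosol. The list's pattern also took in Casp8ap2, a nuclear protein and no caspase. Without it, 1 of 12 tested genes was higher and 8 were lower, against 29.0% and 25.9% of all genes. Casp1, the core inflammasome protease, measured 2.87, 2.62 and 4.31 CPM in the fetal libraries and 74.2, 71.6 and 78.5 CPM in the adult libraries. Casp4, the mouse sensor of lipopolysaccharide, measured 4.24, 4.24 and 9.28 CPM in the fetal libraries and 21, 18.2 and 27.7 CPM in the adult libraries, and Casp12 0, 0 and 0.187 CPM in the fetal libraries and 4.42, 2.71 and 6.22 CPM in the adult libraries. The groups were separate for each, with log2 fold changes of -4.48 ± 0.16 (SE), adjusted p = 1.85e-10 for Casp1, and -1.87 ± 0.28 (SE), adjusted p = 8.53e-05 for Casp4. Casp12 had 2 counts in the fetal group and an adult to fetal ratio of 59.3 (95% exact interval 15.9 to 498, counting error only). The pore protein Gsdmc4 measured 0.249, 0.249 and 0.562 CPM in the fetal libraries and 12.7, 6.11 and 11.9 CPM in the adult libraries (log2 fold change -4.72 ± 0.44, adjusted p = 1.26e-06). Gsdmd, the pore that Casp1 and Casp4 open, was the exception and measured 82.1, 106 and 117 CPM in the fetal libraries and 50.2, 51.4 and 39.2 CPM in the adult libraries, higher in fetal cells with a log2 fold change of 1.12 ± 0.14 (SE), adjusted p = 1.8e-05. The initiators Casp2 and Casp9 and the executioner Casp6 were not called, with log2 fold changes of 0.21 ± 0.10, 0.24 ± 0.11 and 0.06 ± 0.10.

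Ligands and receptors of the tumour necrosis factor family were lower in 8 and higher in 1 of 16 tested cases. That is 50.0% and 6.25% against 25.9% and 29.0% of all genes, and the median log2 fold change was -0.83. The death ligand Tnfsf10, or TRAIL, measured 6.74, 7.36 and 5.72 CPM in the fetal libraries and 174, 165 and 251 CPM in the adult libraries. Tnfsf13, or APRIL, which supports IgA-producing plasma cells, measured 0.249, 0.374 and 0.375 CPM in the fetal libraries and 14, 9.16 and 10.9 CPM in the adult libraries. Tnfrsf14, a receptor for LIGHT that acts in epithelial defence, measured 4.62, 3.87 and 4.69 CPM in the fetal libraries and 31.5, 33.4 and 41.1 CPM in the adult libraries. No values overlapped, with log2 fold changes of -4.90 ± 0.18 (SE), adjusted p = 2.43e-10, -5.004 ± 0.36 (SE), adjusted p = 1.01e-07, and -2.999 ± 0.17 (SE), adjusted p = 1.28e-08. Tnf itself measured 0, 0.249 and 0.187 CPM in the fetal libraries and 5.13, 16.1 and 10.55 CPM in the adult libraries. The receptors with broad expression, Tnfrsf1a and Ltbr, had log2 fold changes of -0.08 ± 0.10 and -0.21 ± 0.09 and were not called. Tnfrsf21 was the higher member (log2 fold change 0.52 ± 0.19, adjusted p = 0.0342), a call lost without fetal replicate 2 or 3 or adult replicate 1 or 3, at adjusted p from 0.0794 to 0.137.

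**Figure D3:**
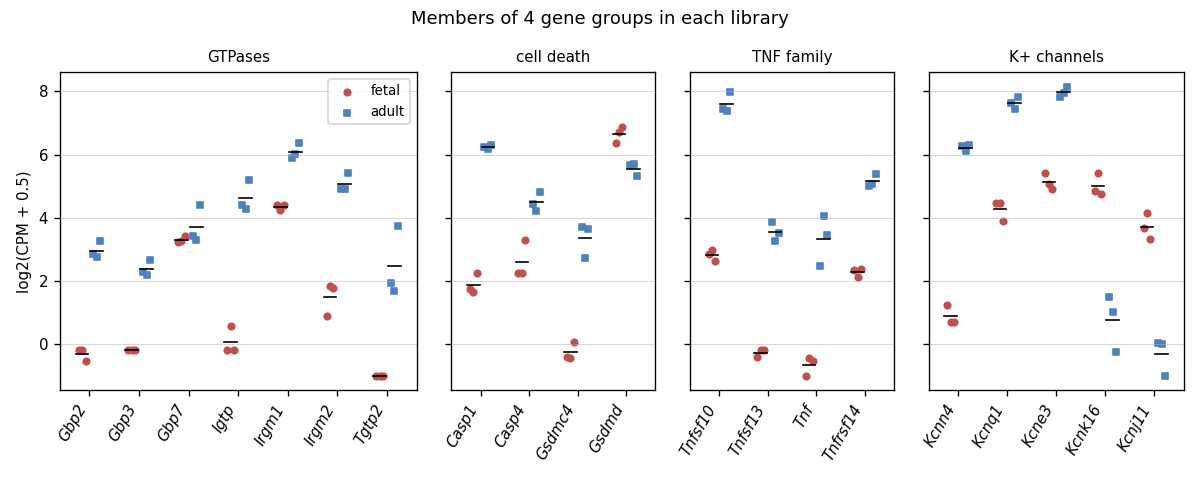
Level of each named gene as log2(CPM + 0.5) in the 3 fetal (red circles) and 3 adult (blue squares) libraries, with black lines at the mean, for interferon-induced GTPases, cell death genes, the tumour necrosis factor family and potassium channels. Gbp7 overlaps between the groups, and Gsdmd, Kcnk16 and Kcnj11 lie higher in fetal libraries.

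Several families tied to cell division had more lower than higher members in fetal cells. The proliferation markers Mki67, Top2a and Pcna, named after their values were seen, were lower too. Mki67 measured 1464, 1203 and 1134 CPM in the fetal libraries and 2258, 2386 and 2276 CPM in the adult libraries, Top2a measured 436, 333 and 313 CPM in the fetal libraries and 869.9, 833 and 792 CPM in the adult libraries, and Pcna measured 24.4, 19.5 and 24.3 CPM in the fetal libraries and 27.6, 32.9 and 29.9 CPM in the adult libraries. Their log2 fold changes were -0.86 ± 0.11 (SE), adjusted p = 1.75e-05, -1.21 ± 0.12 (SE), adjusted p = 1.87e-06, and -0.40 ± 0.13 (SE), adjusted p = 0.021. Of 24 tested genes of cohesin and condensin, the rings that hold and compact chromosomes, 0 were higher and 17 lower, none by over 2-fold. Among all genes 29.0% were higher and 25.9% lower. The family's median log2 fold change was -0.41. The condensin subunits Ncapg2 and Ncaph measured 80.7, 71.6 and 70.7 CPM in the fetal libraries and 120.4, 130.0 and 128 CPM in the adult libraries, and, for Ncaph, 45.7, 37.2 and 34.3 CPM in the fetal libraries and 68.4, 72.3 and 65.5 CPM in the adult libraries. Esco2, which locks cohesin during DNA copying, measured 36.5, 30.4 and 31.7 CPM in the fetal libraries and 58.3, 59.4 and 52.4 CPM in the adult libraries. The 3 genes did not overlap between the groups, with log2 fold changes of -0.76 ± 0.09 (SE), adjusted p = 8.32e-06, -0.82 ± 0.12 (SE), adjusted p = 5.19e-05, and -0.79 ± 0.11 (SE), adjusted p = 4.49e-05. The cohesin core gene Smc3 had a log2 fold change of -0.05 ± 0.09 and was not called (adjusted p = 0.674).

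Of 40 tested genes of double-strand break and Fanconi repair 20 were lower and 1 higher, against 25.9% and 29.0% of all genes. Their median log2 fold change was -0.38. Bard1, the partner of Brca1, measured 20.3, 17.3 and 17.2 CPM in the fetal libraries and 33.4, 44.3 and 41.1 CPM in the adult libraries, and Brca2 measured 51.4, 40.2 and 40.2 CPM in the fetal libraries and 72.1, 77 and 74.9 CPM in the adult libraries. Their log2 fold changes were -1.12 ± 0.14 (SE), adjusted p = 1.59e-05, and -0.77 ± 0.11 (SE), adjusted p = 6.35e-05, beside -0.73 ± 0.12 (SE), adjusted p = 0.000176 for Brca1. The single higher gene was Xrcc5, the larger part of the Ku ring that grips broken ends, at 25.9, 24.1 and 23.4 CPM in the fetal libraries and 9.02, 11.9 and 11.8 CPM in the adult libraries. Its partner Xrcc6 went the other way, at 51.9, 54.4 and 50.3 CPM in the fetal libraries and 71.6, 78.2 and 78.3 CPM in the adult libraries. The log2 fold changes of the pair were 1.17 ± 0.15 (SE), adjusted p = 3.05e-05, and -0.54 ± 0.09 (SE), adjusted p = 0.000198. Of 39 tested genes of mismatch, base and nucleotide excision repair 7 were lower and 1 higher, so their lower share of 17.9% was under that of all genes.

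Ribosome biogenesis factors build ribosomes in the nucleolus. Of 63 tested genes 29 were lower and 1 higher, none by over 2-fold, against calls of 25.9% and 29.0% of all genes. Their median log2 fold change was -0.26. Tcof1, which drives transcription of ribosomal RNA, measured 149, 125 and 109.8 CPM in the fetal libraries and 212, 241 and 205 CPM in the adult libraries, and Heatr1 measured 81.5, 69.3 and 72.3 CPM in the fetal libraries and 107, 119 and 117 CPM in the adult libraries. All adult values of these genes exceeded all fetal ones, with log2 fold changes of -0.78 ± 0.11 (SE), adjusted p = 6.11e-05, and of -0.62 ± 0.09 (SE), adjusted p = 8.01e-05. Nop14, a factor of the small subunit, was lower, its log2 fold change being -0.48 ± 0.10 (SE), adjusted p = 0.00128. Bysl was the higher member (log2 fold change 0.47 ± 0.13, adjusted p = 0.00838). The count of lower members fell when some libraries were left out. It was 18 of 63 without fetal replicate 2, against 2947 of all 13256 genes. It was 14 of 63 without fetal replicate 3, against 2992 of 13261. Without adult replicate 2 it was 16 of 63, against 3158 of 13721. In the last 2 settings the family's lower share was near that of all genes. The count was 20 with library-size scaling, 20 of 61 with the stricter filter and 22 with DESeq2.

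Histone genes of the replication-dependent kind, which are made in S phase and end in a stem-loop instead of a poly(A) tail, were the most shifted of these growth families. Of 55 tested genes 46 were lower and 1 higher, against 25.9% and 29.0% of all genes, with a median log2 fold change of -1.29. H1f0, taken in by the list's pattern, is a polyadenylated linker histone and no member of that kind, and it was lower, its log2 fold change being -0.27 ± 0.09 (SE), adjusted p = 0.028. Lower calls covered 9 of 11 H4c, 9 of 11 H3c, 12 of 14 H2bc and 10 of 13 H2ac genes. H4c8 measured 40.2, 29.2 and 25.5 CPM in the fetal libraries and 136, 125 and 154 CPM in the adult libraries, and H4c6 measured 23.5, 17.5 and 13.6 CPM in the fetal libraries and 71.9, 72.1 and 89.7 CPM in the adult libraries. Adult values were at least 3 times each fetal value in both genes, with log2 fold changes of -2.14 ± 0.15 (SE), adjusted p = 6.66e-08, and of -2.11 ± 0.17 (SE), adjusted p = 2.91e-07. H4c14 was lower, its log2 fold change being -2.04 ± 0.17 (SE), adjusted p = 3.95e-07. The exception H4c9 was higher by 0.89 ± 0.22 (SE), adjusted p = 0.00424. The copies are nearly identical, so the value of a single histone gene is uncertain. The fetal kit is not given in the sources used here, so library method and age cannot be told apart for these genes without a poly(A) tail. In the neighbourhood on chromosome 13, 3 separate runs of 8, 6 and 5 neighbouring histone genes were all lower by over 2-fold.

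Small nucleolar RNAs, whose products guide changes in ribosomal RNA, also lack a poly(A) tail. Of 54 tested genes named Snora, Snord or Scarna 0 were higher, 30 lower and 24 not called, with a median log2 fold change of -0.94. Among all genes 29.0% were higher and 25.9% lower. The small nucleolar RNA genes AF357425 and DQ267101, which lie in the run from Dlk1 and do not carry those names, were higher, at least 99.1-fold and at least 448-fold. Snora74a measured 2.25, 4.61 and 1.22 CPM in the fetal libraries and 15.6, 13.6 and 19.5 CPM in the adult libraries, and its log2 fold change of -2.63 ± 0.34 (adjusted p = 2.71e-05) became -3.26 without fetal replicate 2. Snord17 measured 23, 38.9 and 44.8 CPM in the fetal libraries and 103, 122 and 70.5 CPM in the adult libraries (log2 fold change -1.47 ± 0.22, adjusted p = 9.51e-05), and Scarna10 measured 8.86, 19.08 and 12.4 CPM in the fetal libraries and 45.6, 28 and 53.4 CPM in the adult libraries (log2 fold change -1.66 ± 0.26, adjusted p = 0.000129). Without adult replicate 2 the number of lower genes was 18. Rmrp, the RNA of the MRP enzyme, measured 345, 464 and 237 CPM in the fetal libraries and 1482, 1599 and 2182 CPM in the adult libraries, and Rpph1, the RNA of RNase P, measured 1021, 1834 and 1008 CPM in the fetal libraries and 4049, 1966 and 3533 CPM in the adult libraries. Both were lower, with log2 fold changes of -2.33 ± 0.21 (SE), adjusted p = 9.29e-07, and of -1.31 ± 0.26 (SE), adjusted p = 0.000836. The telomerase RNA Terc was not called (log2 fold change 0.14 ± 0.33, adjusted p = 0.743). Of 42 tested microRNA genes 10 were higher and 5 lower. These shares, 23.8% and 11.9%, were both under those of all genes, 29.0% and 25.9%. The share of Rn45s, the ribosomal RNA precursor, was 9.21% to 10.7% in fetal and 7.32% to 8.72% in adult libraries. The adult libraries were made with a total RNA kit, and the fetal kit is not given in the sources used here, so the library method and age cannot be told apart for these RNAs.

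**Figure D4:**
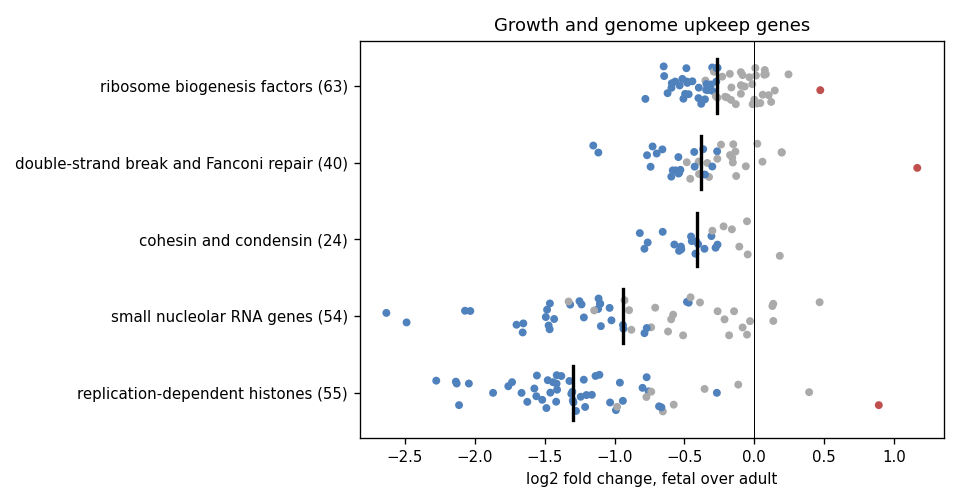
Log2 fold change (fetal over adult) of each tested member of 5 families, as points in blue where called lower, red where called higher and grey where not called, with black bars at the family median. The medians run from -0.26 for ribosome biogenesis factors to -1.29 for histones.

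Among the 12 genes with the largest change in each direction that were abundant on average, several lay outside these families. Higher by rule were Cckar, the receptor for cholecystokinin, with 49.4, 87.3 and 54.2 CPM in fetal against 0, 0 and 0 CPM in adult libraries, and Pnliprp1, a pancreatic lipase relative, with 828, 1705 and 884 CPM in fetal against 0.177, 0.17 and 0.519 CPM in adult libraries. Cckar was at least 362-fold higher. Both were highest in fetal replicate 2, as the pancreatic markers were, and their part was not tested. Lower by rule were Slco2b1, an uptake carrier of organic anions, at 1.37, 0.998 and 0.75 CPM in the fetal libraries and 127, 128 and 125 CPM in the adult libraries, and Prelp, a leucine-rich matrix protein, at 0.624, 0.748 and 0.75 CPM in the fetal libraries and 107, 119.6 and 115 CPM in the adult libraries. Both adult sets were tight, with log2 fold changes of -6.94 ± 0.16 (SE), adjusted p = 4.34e-12, and of -7.29 ± 0.16 (SE), adjusted p = 3.42e-12. Itln1, a lectin that binds microbial sugars, measured 0.125, 0.249 and 0.656 CPM in the fetal libraries and 55.9, 77.4 and 75.7 CPM in the adult libraries, and Apol10a, an apolipoprotein L gene, measured 0.125, 0.249 and 0.562 CPM in the fetal libraries and 88, 76.7 and 80.9 CPM in the adult libraries. Their log2 fold changes of -7.48 ± 0.28 and -7.86 ± 0.22 became -8.39 and -8.63 without fetal replicate 3.

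Changed genes also lay side by side. There were 49 runs of at least 4 neighbouring tested genes all called in 1 direction by over 2-fold, 36 higher and 13 lower, holding 249 genes. Over all tested genes, 2124 were higher and 1059 lower by over 2-fold, and the number of runs expected from this was not computed. Some runs are tandem copies or known imprinted domains, and others join genes far apart, up to 3845.5 kb from Pclo to Gnai1. The run with most genes was on the X chromosome at chrX:135742692-136709873, where 11 neighbours from Gprasp1 to Tceal1 were higher. Their fitted log2 fold changes ran from 1.32 to 10.49, the latter for a gene with 0 adult counts. It holds the Bex and Tceal genes, small proteins known from brain and embryonic tissues. Bex1 measured 38.4, 46.6 and 25.1 CPM in the fetal libraries and 1.77, 1.02 and 1.21 CPM in the adult libraries, Bex2 measured 32.9, 44.6 and 36 CPM in the fetal libraries and 2.83, 3.22 and 2.25 CPM in the adult libraries, and Tceal8 measured 97.4, 103 and 90.9 CPM in the fetal libraries and 1.94, 1.36 and 2.07 CPM in the adult libraries. Bex4 measured 25.6, 27.9 and 20.2 CPM in the fetal libraries and 0, 0 and 0 CPM in the adult libraries, at least 139-fold higher. Fetal values of all 4 genes were far above the adult ones, with log2 fold changes of 4.76 ± 0.31 (SE), adjusted p = 4.69e-08 for Bex1, 3.76 ± 0.20 (SE), adjusted p = 6.83e-09 for Bex2, and 5.75 ± 0.16 (SE), adjusted p = 2.23e-11 for Tceal8. A second X-linked run at chrX:134685650-134809221 held 5 Armcx genes, which affect the movement of mitochondria. Armcx2 measured 16.6, 23.9 and 14.7 CPM in the fetal libraries and 0, 0 and 0 CPM in the adult libraries, at least 104-fold higher, and Armcx4 measured 17.3, 16.1 and 17.5 CPM in the fetal libraries and 0.884, 0.509 and 0.864 CPM in the adult libraries (log2 fold change 4.47 ± 0.27, adjusted p = 2.07e-08). The third ran from Mageh1 to Kctd12b.

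On the X chromosome 40.8% of 419 tested genes were higher and 18.9% lower, against 20.8% to 35.9% and 21.2% to 30.3% on the autosomes. Without the 21 genes of the 3 runs, 37.7% of the remaining 398 were higher. The 4 tested Y-linked genes summed to 47.4, 104 and 97.1 CPM in fetal and 0 CPM in adult libraries. Xist, which silences 1 X chromosome in female cells, measured 1111, 584 and 689.9 CPM in the fetal libraries and 1527, 1191 and 1537 CPM in the adult libraries. Fetal libraries thus held male RNA and adult libraries no detectable Y-linked RNA, so sex and age cannot be told apart for X-linked genes.

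On the autosomes, Hao2, a peroxisomal oxidase in a run of 6 higher genes on chromosome 3, measured 46.2, 43.5 and 60.3 CPM in the fetal libraries and 1.77, 0.848 and 1.56 CPM in the adult libraries. The groups did not overlap, with a log2 fold change of 5.16 ± 0.24 (SE), adjusted p = 1.74e-09. A run of 4 at chr7:45617606-45666394 held Fut1 and Fut2, which add fucose to surface glycans. Fut2 measured 71.1, 104 and 107 CPM in the fetal libraries and 4.95, 1.19 and 2.94 CPM in the adult libraries, with a log2 fold change of 4.96 ± 0.28 (SE), adjusted p = 1.05e-08. Lower was a run of 7 at chr3:144729677-145153915 with 6 Clca genes, of which Clca1 is secreted by goblet cells with mucus. Clca3b measured 67, 52.5 and 45.3 CPM in the fetal libraries and 1775, 1978 and 2765 CPM in the adult libraries, and Clca4b measured 27.1, 40 and 38.6 CPM in the fetal libraries and 186, 230.2 and 289.6 CPM in the adult libraries. Their log2 fold changes were -5.31 ± 0.20 (SE), adjusted p = 2.35e-10, and -2.74 ± 0.17 (SE), adjusted p = 2.64e-08. The share of higher genes also grew with the length of the gene in the genome. It was 23.2% in the fifth of tested genes with the shortest span (up to 7485 bases) and 39.3% in the fifth with the longest (from 68324 bases), while the share lower stayed between 25.1% and 27.5%. How coverage along transcripts differed between the library types was not measured here.

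Some genes with related symbols were called in opposite directions. Genes were grouped by their symbol without its last number and letter, which does not always make a family. Of 109 groups with at least 1 gene higher and 1 lower by over 2-fold, 26 gave a pair with at least 40% identical residues over the shorter translated reading frame. The plot shows 12 of these pairs, ranked by the smaller of the pair's changes. Reading frames ended at the first TAA, TAG or TGA, which cuts short a protein with an internal TGA codon. Gpx3 and Gpx2 were read as 94 and 57 residues and did not pass, at 19.3% identity. Their smaller log2 change of 1.94 exceeds that of the shown pair Ccnd3 and Ccnd1 (1.81). The count of 26 and the pairs shown thus depend on this rule. Groups and pairs were picked for their opposite calls, so they do not measure how often relatives differ. Over all tested genes, 2124 were higher and 1059 lower by over 2-fold. Among glucose and fructose carriers, Slc2a1, the basic glucose carrier, measured 158, 168 and 135 CPM in the fetal libraries and 33.4, 36.3 and 36.6 CPM in the adult libraries, whereas Slc2a5, the fructose carrier of enterocytes, measured 3.74, 3.87 and 3 CPM in the fetal libraries and 14.5, 13.1 and 15.4 CPM in the adult libraries. Their log2 fold changes were 2.12 ± 0.11 (SE), adjusted p = 3.6e-09, and -2.02 ± 0.21 (SE), adjusted p = 3.14e-06, at 42.3% identity. Cyclin D3, from Ccnd3, measured 143, 155 and 130.3 CPM in the fetal libraries and 42.8, 42.8 and 37 CPM in the adult libraries, and cyclin D1, from Ccnd1, measured 69, 61.9 and 54.1 CPM in the fetal libraries and 203, 263 and 264 CPM in the adult libraries. Both cyclins drive entry into the cell cycle, and their log2 fold changes were 1.81 ± 0.10 (SE), adjusted p = 1.07e-08, and -1.98 ± 0.12 (SE), adjusted p = 2.38e-08. The cyclin partner Cdk6 was lower at 47.5, 41.9 and 36.8 CPM in fetal against 188, 212 and 263 CPM in adult libraries, and its relative Cdk14 higher at 18.7, 21.1 and 21.2 CPM in fetal against 2.3, 1.19 and 2.59 CPM in adult libraries.

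Far1 and Far2 make fatty alcohols for ether lipids and waxes. Far1 measured 68, 66.7 and 86.2 CPM in the fetal libraries and 8.31, 18 and 11.2 CPM in the adult libraries, and Far2 measured 66.6, 61.9 and 68.6 CPM in the fetal libraries and 406, 409 and 426 CPM in the adult libraries. They share 57.9% of residues and had log2 fold changes of 2.55 ± 0.20 (SE), adjusted p = 2.91e-07, and of -2.65 ± 0.08 (SE), adjusted p = 5.92e-11. The matrix proteins Smoc1 and Smoc2 bind growth factors, and Smoc2 is a known marker of crypt stem cells. Smoc1 measured 27.2, 30.1 and 18.9 CPM in the fetal libraries and 2.12, 0.679 and 0.173 CPM in the adult libraries, and its log2 fold change of 4.66 ± 0.39 became 5.82 without adult replicate 1. The nucleoside carriers Slc28a2 (3.21 ± 0.14) and Slc28a3 (-2.81 ± 0.21), the death-associated kinases Dapk1 (4.58 ± 0.26) and Dapk2 (-2.78 ± 0.20), and the actin-binding calponins Cnn2 (2.30 ± 0.25) and Cnn3 (-2.33 ± 0.13) were further pairs, with log2 fold changes ± SE in brackets. Akr1c19 (3.31 ± 0.12) and Akr1c14 (-2.29 ± 0.20) are aldo-keto reductases with 67.8% identical residues. The remaining 3 pairs were Prss1 and Prss32, Adamts9 and Adamts15, and Zfp334 and Zfp239, and Prss1, or trypsinogen, is a pancreatic marker.

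**Figure D5:**
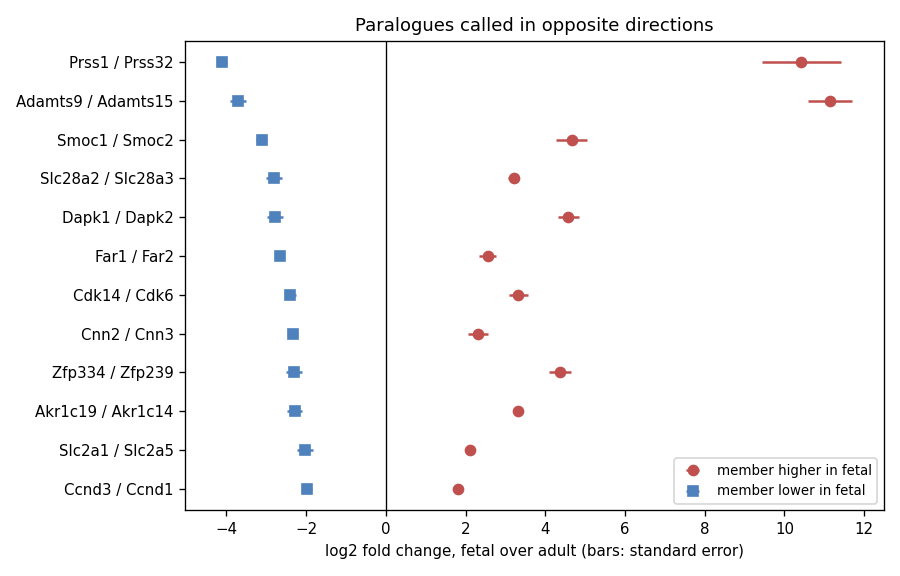
Log2 fold change (fetal over adult) with its standard error for 12 pairs of related genes, the member higher in fetal cells as red circles and the member lower as blue squares. Prss1 and Adamts9 had 0 counts in the adult group, so their fitted values of 10.42 and 11.15 depend on the prior count and are no bound. Their error bars are computed from these values and share that limit.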

How the data were processed

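Gene counts were used as deposited by the authors, 1 column per library, with Entrez identifiers and symbols. Build mm10 and edgeR appear in the submitters' processing notes. The aligner, counter, annotation and strand setting for these libraries are not given in the sources read. Of 24594 rows, 7 had no symbol and were kept under their Entrez identifier. Genes were filtered with filterByExpr, scaled with TMM and tested with edgeR 4.0.16 (quasi-likelihood test, R 4.3.3, no block, Benjamini-Hochberg adjustment over 13314 genes, called at adjusted p under 0.05). CPM were computed here from the counts and are TMM-scaled. DESeq2 1.42.0, other scalings and filters, left-out libraries and a replicate block were alternatives. On simulated counts for this comparison (12163 genes), 87.2% of 2-fold and 100% of 4-fold changes were recovered, and 2.29% of calls were false. The simulation used adult means and the same dispersion for every gene, and changed few genes, equally many up and down. In the data 54.9% of genes were called, with more over 2-fold higher than lower, so these rates do not carry over to the real comparison.

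The lists and members were chosen with earlier results of these data known. Named by rule were up to 3 called members per direction of each described list (smallest p), the 12 most changed abundant genes per direction (average log2 CPM of at least 5), 12 pairs of related genes (average log2 CPM of at least 3) and genes in runs of at least 4. Every other gene named was chosen after its values were seen, as were 7 families, stated where they appear or here (schlafens, TRIM proteins, planar polarity, cilium, splicing, homeobox, potassium channels). An 8th such family, myosins, was left out after its direction did not hold under library-size scaling and without fetal replicate 1. Rule families are the 8 most shifted per direction outside the marker lists, a limit set after the results were seen. Identity was computed with Biopython 1.88 on the longest reading frames of GENCODE transcripts in place of RefSeq proteins, which were not used here, and a first nucleotide alignment was replaced after its output was seen. Promoter, chromosome and gene-length summaries were not part of the written design. Positions of runs are mm10, and promoters are RefSeq, GRCm38.p6. A few members that the rule names are not reported here.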

Additional observations from a re-analysis of the deposited data

How the results depend on the processing

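The counts of genes called, higher, lower and over 2-fold stayed within 1.5 times their values under the 13 alternatives, except the counts over 2-fold with a filter of 10 CPM in 3 libraries, where 10049 genes were tested and 1763 were called over 2-fold, 1080 higher and 683 lower, against 3183, 2124 and 1059. Leaving out 1 library gave 6397 to 7261 called genes (3450 to 3938 higher, 2947 to 3323 lower) and 3084 to 3483 over 2-fold (2016 to 2364 higher, 1067 to 1119 lower). The replicate block gave 6886 called genes, and replicate numbers did not pair the libraries (correlations of deviations -0.063, -0.035 and -0.087 for the same numbers). DESeq2 called 7148 genes. The median log2 fold change of all genes was 0.14 with DESeq2 and 0.13 without a filter. Scaling by library size only gave 4149 higher and 3086 lower genes. Of 412 gene results, 396 kept call and direction under the alternatives that tested them, 16 lost the call in at least 1, and 0 reversed. All 16 rule families kept their direction wherever members were tested, but the stricter filter left few members of some, with 4 tested GTPases (3 lower), 8 serpins (7 higher, 1 lower) and 14 small nucleolar RNA genes (12 lower). With that filter or library-size scaling, 3 of the tested caspase and gasdermin genes were higher. Low counts limit genes near 0 in a group to bounds or wide intervals.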
